A study of Mus musculus with 74 samples.

Results

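Trimethylation of lysine 4 of histone H3 (H3K4me3) was compared between livers of *Gps2* LKO mice and of their WT controls, at the regions where the mark forms peaks. The members are the rows of the deposited tag table, a table shared by H3K4me3 and H3K27ac (acetylation of lysine 27 of histone H3), that overlap by at least 1 bp an H3K4me3 peak of at least 1 of the 4 H3K4me3 libraries. They are 26947 of 85764 rows. A row that comes within 1000 bp of the TSS annotated to it was taken as a promoter row, which gave 13977 promoter rows and 12970 distal rows. The study asked how the corepressor subunit GPS2 acts on liver gene expression, and it deposited ChIP-seq and RNA-seq data of livers on normal chow. H3K4me3 was measured in 2 WT and 2 LKO libraries, H3K27ac in 2 and 2, and RNA in 4 and 4. WT mice carried the floxed *Gps2* alleles (*Gps2* flox/flox) without Cre, and LKO mice carried the same alleles with Alb-Cre, a transgene whose albumin promoter drives Cre recombinase in hepatocytes, so the other cells of an LKO liver keep *Gps2*. All were C57BL/6 mice of 8 to 12 weeks according to the labels, and the column headers call the livers fed. The methods state that all mice used were male and that several immunoprecipitations were pooled for a library. The methods of the study call its replicates biological, while the labels do not tie the libraries to single animals, and p-values measure the spread between these libraries.

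H3K4me3 marks the nucleosomes that flank the TSS of genes whose promoters are in use, and it is laid down by SET1 and MLL methyltransferases. At CpG-rich promoters of housekeeping genes the mark is present in most tissues, whereas highly expressed genes of a tissue often carry it over a broad stretch that runs into the gene. GPS2 is a subunit of the NCOR/SMRT corepressor complex with HDAC3, and PPARα, the receptor that switches on hepatic fatty acid oxidation, is one of the nuclear receptors the complex represses.

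The promoter sequences of 6 genes are shown because the mark at the promoter row and the RNA of the gene each tested as changed. They also hold, or lack, the motifs counted further on. Each is the stretch of 300 bases from 250 bases upstream of the TSS into the gene, in mm9 and on the strand of the gene. *Cyp4a14* lies at chr4:115168697-115168996 (minus strand), *Fgf21* at chr7:52870811-52871110 (minus), *Trim24* at chr6:37850237-37850536 (plus), *Cyp3a59* at chr5:146890584-146890883 (plus), *Cyp2c38* at chr19:39537516-39537815 (minus) and *Sult5a1* at chr8:125682131-125682430 (minus). Capitals mark a match to TGATGNAA on either strand (*Fgf21*, *Trim24*), to the DR1 element (AGGTCA, any base, AGGTCA) with at most 2 mismatches on either strand (*Cyp3a59*) or to TATAAA just upstream of the TSS (*Fgf21*, *Cyp2c38*). H3K4me3 rose at the first 5 and fell at *Sult5a1*. The *Trim24* sequence is that of the weaker of its promoter rows, and its RNA was counted over the whole gene.
Cyp4a14: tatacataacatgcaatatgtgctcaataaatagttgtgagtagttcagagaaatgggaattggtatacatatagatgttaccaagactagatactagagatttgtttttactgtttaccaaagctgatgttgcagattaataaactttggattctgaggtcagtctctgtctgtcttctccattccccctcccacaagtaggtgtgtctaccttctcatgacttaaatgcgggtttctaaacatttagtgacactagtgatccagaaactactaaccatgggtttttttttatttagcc
Fgf21: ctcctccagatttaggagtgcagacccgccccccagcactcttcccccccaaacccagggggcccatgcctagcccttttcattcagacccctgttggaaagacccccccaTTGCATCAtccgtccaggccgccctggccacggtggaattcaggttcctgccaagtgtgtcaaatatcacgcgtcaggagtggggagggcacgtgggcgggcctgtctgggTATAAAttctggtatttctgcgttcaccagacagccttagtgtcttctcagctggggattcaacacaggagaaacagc
Trim24: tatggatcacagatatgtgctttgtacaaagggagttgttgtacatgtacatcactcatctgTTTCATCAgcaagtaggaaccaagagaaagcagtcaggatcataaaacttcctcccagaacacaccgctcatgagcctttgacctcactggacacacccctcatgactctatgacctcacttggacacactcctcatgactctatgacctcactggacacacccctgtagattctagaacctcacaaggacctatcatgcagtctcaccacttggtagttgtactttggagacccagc
Cyp3a59: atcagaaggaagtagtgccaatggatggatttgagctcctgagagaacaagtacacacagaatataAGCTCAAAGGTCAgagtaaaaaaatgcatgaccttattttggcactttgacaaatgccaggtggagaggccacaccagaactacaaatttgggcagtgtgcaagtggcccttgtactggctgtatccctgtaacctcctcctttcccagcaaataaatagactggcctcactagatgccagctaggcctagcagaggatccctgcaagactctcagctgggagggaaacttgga
Cyp2c38: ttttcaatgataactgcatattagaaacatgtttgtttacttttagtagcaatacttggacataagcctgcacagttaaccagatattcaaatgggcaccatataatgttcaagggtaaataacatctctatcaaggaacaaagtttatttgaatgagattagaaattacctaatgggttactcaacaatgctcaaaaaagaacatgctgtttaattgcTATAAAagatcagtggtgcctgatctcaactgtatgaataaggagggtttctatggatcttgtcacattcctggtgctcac
Sult5a1: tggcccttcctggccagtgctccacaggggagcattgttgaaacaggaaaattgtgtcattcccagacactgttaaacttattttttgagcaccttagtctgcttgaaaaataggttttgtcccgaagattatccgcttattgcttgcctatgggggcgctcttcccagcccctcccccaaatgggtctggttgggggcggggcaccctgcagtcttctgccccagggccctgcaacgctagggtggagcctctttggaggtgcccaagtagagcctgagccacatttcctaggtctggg

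In units of 1000000 tags, the libraries held 16.84 and 15.35 in WT and 19.01 and 18.79 in LKO, and between 23768 and 25542 peaks. Member rows took 70.4% and 65.1% of the tags in WT and 70.3% and 70.1% in LKO. These shares differed by 2.42 percentage points between the group means (two-sided exact permutation test, p = 1, smallest possible p = 0.333), and WT replicate 2 was the library that stood lower. All values per library below are H3K4me3 tags per 10000000 tags of the library, and fold changes are LKO over WT from edgeR's quasi-likelihood test with Benjamini-Hochberg adjustment over all members. A row was called at an adjusted p below 0.05.

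*Gps2* itself was checked first. Its promoter row held 577 and 516 tags in WT and 570 and 622 in LKO, so that the groups overlapped (log2 fold change 0.12, SE 0.08, adjusted p = 0.801). *Gps2* RNA ran from 15.1 to 16.7 CPM (reads per 1000000 counted reads, with TMM scaling) in the 4 WT libraries and from 9.16 to 12.9 in the 4 LKO libraries, all below WT (log2 fold change -0.53, SE 0.11, adjusted p = 0.002). The peak over the *Gps2* promoter covered 2687 and 2672 bp of the row in WT and 3682 and 3996 bp in LKO. The RNA count covers the whole gene and all liver cells, so that reads outside the deleted part and from other cell types are in it. The 3 Y-linked genes with a promoter row (*Ddx3y*, *Uty* and *Eif2s3y*) carried 284 to 429 tags in every library, and none was called.

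More regions gained the mark than lost it. H3K4me3 rose at 226 of the 26947 rows (0.839%) and fell at 36 (0.134%). It rose at 159 promoter rows (1.14% of all promoter rows) and fell at 20 (0.143%), and it rose at 67 distal rows (0.517%) and fell at 16 (0.123%). Most rises were modest, with a median of 1.42-fold at promoters and a range of 1.21-fold to 5.69-fold, and 24 reached 2-fold. At the promoters that fell, LKO held between 0.0769 and 0.796 of the WT level, with a median of 0.5. Scaled to total tags, both LKO libraries lay above both WT libraries at 30.6% of all promoter rows and below at 5.67%. The groups were separated at each of the 262 called rows. Promoter rows took 63.1% and 58.8% of the tags in WT and 63.1% and 63.3% in LKO, a difference that total-tag scaling does not remove. Over all rows the median log2 fold change was 0.037 with total tags and 0.0017 with TMM scaling. TMM scaling called 141 promoter rises and 35 falls. Scaling to tags in promoter rows, chosen after seeing the data, called 112 and 28. A fit over the whole shared table, where most rows carry no H3K4me3 peak, called 19 promoter rises and no fall. Leaving out WT replicate 2 left 78 promoter rises, and leaving out WT replicate 1 gave 247 rises and 13 falls. Falls numbered 31 without WT replicate 2, 33 without LKO replicate 1 and 11 without LKO replicate 2.

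**Figure D1:**
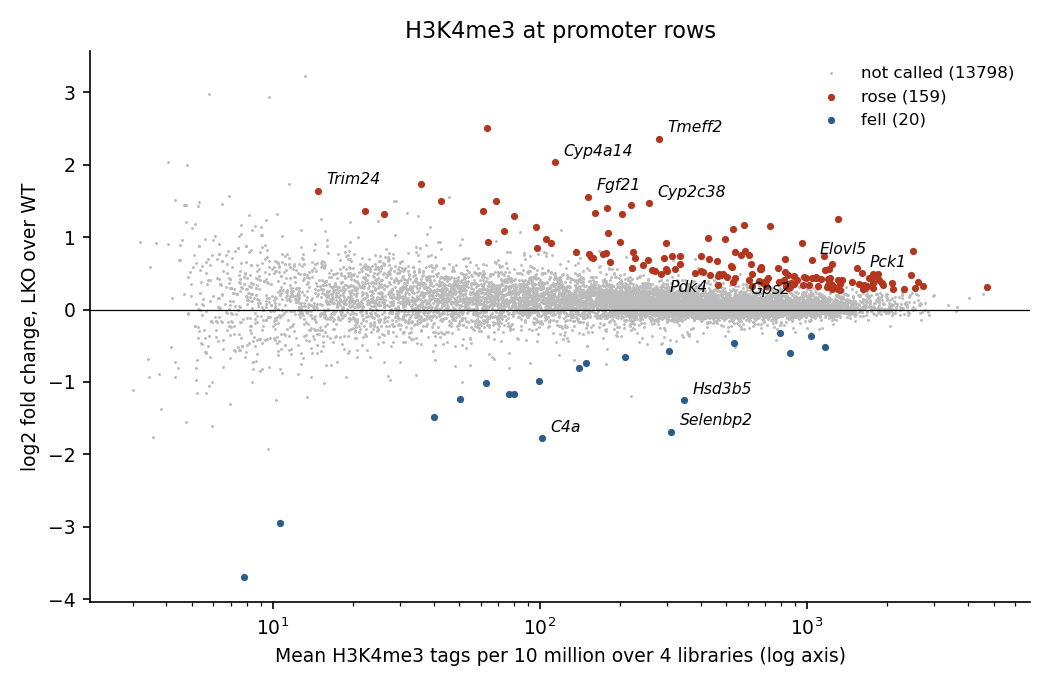
Promoter rows by mean H3K4me3 tags per 10000000 (log axis) and log2 fold change, LKO over WT, each point a row. The 159 rows that rose (red) extend to the highest tag levels, with folds that narrow as the level rises, and the 20 that fell (blue) include 2 at low levels below -2. Grey rows were not called.

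Several of the largest gains at promoters were at genes with hardly any RNA in WT liver. *Tmeff2*, which encodes a transmembrane protein with an EGF-like domain, held 86.1 and 95.8 tags in WT and 494 and 441 in LKO (log2 fold change 2.36, SE 0.12, adjusted p = 8.98e-09). Both LKO libraries were far above both WT libraries, the peak lengthened from 1555 and 1543 bp to 3309 and 3354 bp, and the call held under each of the 13 alternatives tried. *Tmeff2* RNA was at most 0.931 CPM in the WT libraries and at least 35.2 in the LKO libraries. *Corin*, a serine protease that processes a natriuretic peptide, went from 38.0 and 33.2 to 110 and 92.6 tags (log2 fold change 1.5, SE 0.22, adjusted p = 9.40e-04), and *Krt23*, a type I keratin, from 29.7 and 39.1 to 84.7 and 92.6 (log2 fold change 1.37, SE 0.22, adjusted p = 0.003). The WT libraries held at most 0.191 CPM of *Corin* RNA and 0.466 of *Krt23* RNA, and both RNAs rose in LKO. *Slc16a5*, of the monocarboxylate transporter family, held 87.3 and 108 tags in WT and 283 and 235 in LKO (log2 fold change 1.41, SE 0.16, adjusted p = 9.50e-05). The noncoding *1810053B23Rik* had the largest fold of all promoter rows with at least 20 tags per library on average, from 21.4 and 16.3 to 156 and 60.1 tags (log2 fold change 2.51, SE 0.36, adjusted p = 9.75e-04). Its LKO libraries differed by more than 2-fold from each other, and the call was lost without WT replicate 2 and in the whole table. Both LKO libraries had a peak in this row and neither WT library did, so it became a member only through LKO. The fit over rows with a peak in both genotypes therefore did not hold it. In the GENCODE annotation of mm9 the nearest TSS lay 13970 bp from the row. *Trim24*, a cofactor of nuclear receptors with a female bias in mouse liver, has 2 promoter rows, of which the one with more tags had a log2 fold change of 0.06 and was not called. The other, weakly marked row held 7.72 and 6.52 tags in WT, where neither library had a peak, and 24.2 and 20.8 in LKO, where both did (log2 fold change 1.65, SE 0.37, adjusted p = 0.0378). This call was lost when any of the 4 libraries was left out, with TMM scaling, with scaling to promoter tags and in the whole table. Unlike the genes above with hardly any RNA, *Trim24* had 31.01 to 33.55 CPM in WT and 52.25 to 56.47 in LKO. These reads are of the whole gene and cannot be assigned to either promoter row. *BB218582*, an unnamed transcript, rose from 15.4 and 17.6 to 61.0 and 49.5 tags (log2 fold change 1.74, SE 0.27, adjusted p = 0.00173).

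**Figure D2:**
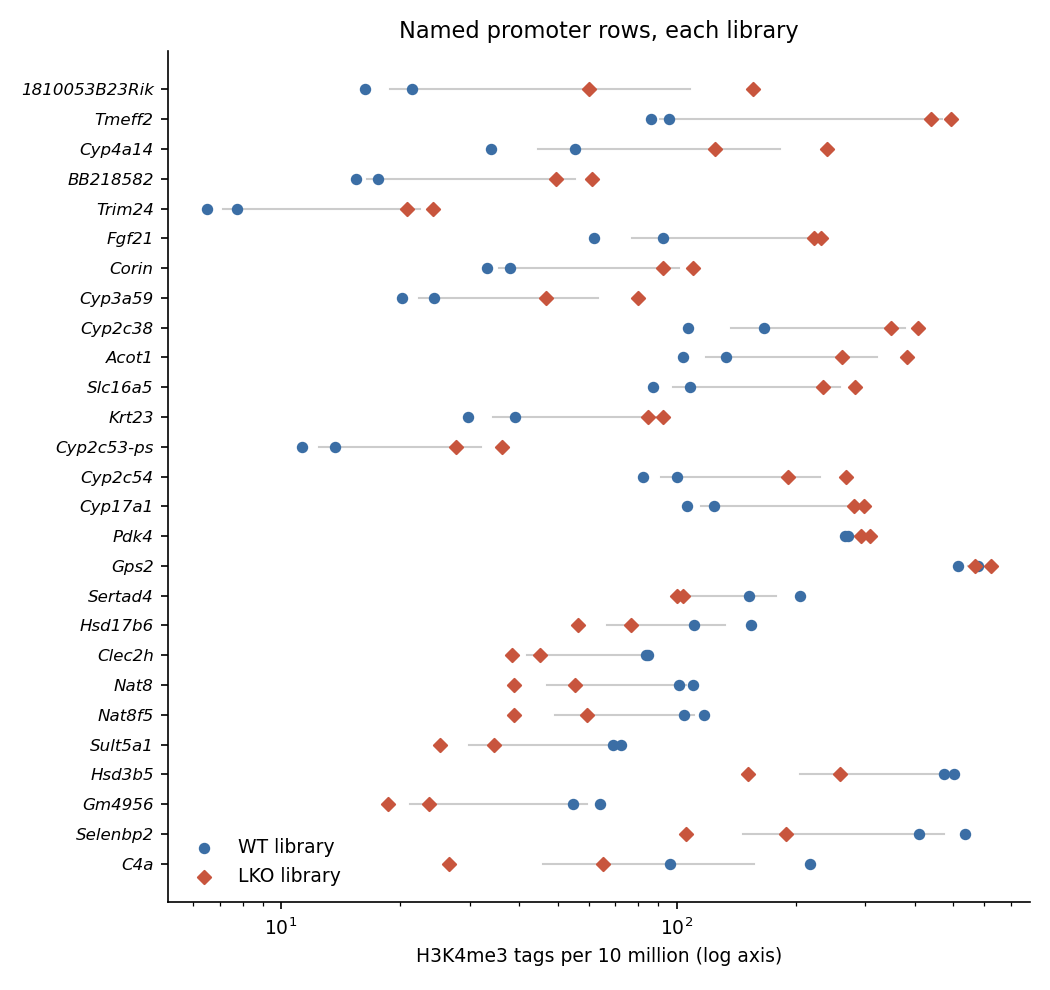
H3K4me3 tags per 10000000 (log axis) in each WT (circle) and LKO (diamond) library at the named promoter rows, ordered by log2 fold change; the grey line joins the group means. The libraries of the groups are separated at every row but *Gps2*, and at *Pdk4* they are separated although the row was not called.

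PPARα target genes gained the mark in part. Of 34 listed targets with a promoter row, 10 rose and none fell, where 1.14% of all promoter rows rose and 0.143% fell, with a median log2 fold change of 0.22 beside 0.05 over all promoter rows. *Cyp4a14*, a fatty acid ω-hydroxylase and a classical PPARα target, held 33.9 and 55.4 tags in WT and 125 and 241 in LKO (log2 fold change 2.04, SE 0.28, adjusted p = 5.96e-04). WT replicate 1 had no peak in the row and WT replicate 2 had 501 bp of peak, whereas the LKO peaks covered 1950 and 3198 bp. *Cyp4a14* stayed called under 11 of 13 alternatives and was lost with DESeq2 and in the whole table. *Fgf21*, the fasting hormone of the liver, rose from 61.8 and 92.5 to 222 and 232 tags (log2 fold change 1.56, SE 0.18, adjusted p = 1.27e-04), and *Acot1*, an acyl-CoA thioesterase, from 104 and 134 to 263 and 382 (log2 fold change 1.44, SE 0.17, adjusted p = 1.43e-04). *Acot3*, of the same gene cluster, went from 245 and 330 to 511 and 622 tags (log2 fold change 0.98, SE 0.12, adjusted p = 1.53e-04), a call lost with DESeq2 and in the whole table. Others that rose, named after their values were seen, included *Acaa1b*, *Aldh3a2*, *Fabp1*, *Plin2* and *Angptl4*, with log2 fold changes from 0.32 (*Angptl4*) to 0.92 (*Acaa1b*). Rows in the *Cyp4a* and *Acot* clusters cover near-identical gene copies, so that uniquely mapped tags may be missing or misplaced there. *Pdk4*, which spares glucose by blocking pyruvate dehydrogenase, was not called (log2 fold change 0.16, SE 0.11, adjusted p = 0.814), although its peaks covered 1447 and 1841 bp in WT and 3445 and 3193 bp in LKO.

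Some of the named rises lay at cytochrome P450 genes of the 2C and 3A families, which oxidise drugs, steroids and fatty acids. No list of these families was fixed, and their other members are not counted here. *Cyp2c38* went from 107 and 167 to 348 and 408 tags (log2 fold change 1.47, SE 0.16, adjusted p = 5.06e-05), *Cyp2c54* from 100.4 and 82.1 to 269 and 192 (log2 fold change 1.33, SE 0.18, adjusted p = 5.94e-04) and *Cyp2c29* from 344 and 373 to 843 and 771 (log2 fold change 1.17, SE 0.08, adjusted p = 1.45e-07). *Cyp3a59* held 24.4 and 20.2 tags in WT and 80.0 and 46.8 in LKO (log2 fold change 1.5, SE 0.28, adjusted p = 0.0101). Its call was lost in the whole table, with scaling to promoter tags and without each library except LKO replicate 2. *Cyp3a11* held 711 and 559 in WT and 1079 and 977 in LKO (log2 fold change 0.69, SE 0.09, adjusted p = 3.20e-04). The pseudogene *Cyp2c53-ps* was called too, at 11.3 and 13.7 tags in WT and 36.3 and 27.7 in LKO (log2 fold change 1.36, SE 0.31, adjusted p = 0.0438), but it lost the call with TMM scaling, with DESeq2 and without each library except LKO replicate 2. Only LKO replicate 1 had a peak in the row of this pseudogene. These P450 genes are near copies of each other, and the separate values are uncertain for the same reason as above. In the list of CAR (constitutive androstane receptor) and xenobiotic genes, 3 of 17 promoter rows rose and none fell (1.14% and 0.143% of all promoter rows). Not called were *Cyp3a13* of this list (log2 fold change 0.19) and *Cyp2c40* and *Cyp2c69* of the female-biased list (2.94 and 2.98), named after their values were seen. The rows of *Cyp2c40* and *Cyp2c69* averaged under 20 tags per library.

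Genes that differ between the sexes in mouse liver were called in part, in livers of mice that the methods describe as male. Of 13 listed female-biased genes with a promoter row, 5 rose and none fell, with a median log2 fold change of 0.79. Of these rows 11 averaged at least 20 tags per library. The median includes the weakly marked *Cyp2c40* and *Cyp2c69*, which had the largest log2 fold changes of the list. Of 17 male-biased genes, 5 fell, 1 rose and 11 were not called, with a median of -0.20. Over all promoter rows 1.14% rose and 0.143% fell. With DESeq2, 2 female-biased genes rose, and 3 male-biased genes fell and 1 rose. *Cyp4a14*, *Acot3*, *Cyp4a10* and *Abcd2* were on both the female-biased and the PPARα list, and *Prom1* was also on that of bile duct markers. *Cyp17a1*, which makes steroid precursors, rose from 124 and 106 to 281 and 298 tags (log2 fold change 1.33, SE 0.14, adjusted p = 4.24e-05), and its peaks widened from 2921 and 1891 bp to 4712 and 4877 bp. *Cux2*, a female-specific transcription factor of the liver, rose at its promoter row (225 and 202 against 281 and 342, log2 fold change 0.54) and at a row inside its intron 2 (13.7 and 16.9 against 52.6 and 66.0, log2 fold change 1.95), the latter named after its values were seen. Among male-biased genes, *Selenbp2*, a selenium binding protein, fell from 537 and 410 to 189 and 105 tags (log2 fold change -1.69, SE 0.18, adjusted p = 5.06e-05), and *Hsd3b5*, a steroid reductase, from 502 and 475 to 259 and 152 (log2 fold change -1.25, SE 0.16, adjusted p = 2.09e-04). *C4a*, the sex-limited copy of complement C4, fell from 218 and 96.4 to 65.2 and 26.6 tags (log2 fold change -1.78, SE 0.34, adjusted p = 0.0118), but the WT libraries differed by more than 2-fold and the call was lost without WT replicate 1, with DESeq2, in the whole table and with scaling to promoter tags. *Cyp7b1* (oxysterol 7α-hydroxylase) and *Cyp2u1* also fell, by 0.60 and 0.47 on the log2 scale. *Elovl3*, an elongase of very long fatty acids that like these is named after its values were seen, went the other way, from 524 and 515 to 769 and 688 tags (log2 fold change 0.49, SE 0.07, adjusted p = 0.00151). *Moxd1*, a monooxygenase-like gene, differed most between the WT libraries. It held 339 tags in WT replicate 1, 63.2 in WT replicate 2 and 75.7 and 53.8 in LKO, and was not called (log2 fold change -1.64, adjusted p = 0.118).

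Among promoters averaging at least 20 tags per library, the other losses were smaller than those of *C4a* and *Selenbp2*. *Gm4956*, a noncoding transcript, fell from 54.6 and 63.9 to 23.7 and 18.6 tags (log2 fold change -1.48, SE 0.25, adjusted p = 0.00417), and had a peak in both WT libraries and in neither LKO library. *Sult5a1*, a sulfotransferase, fell from 68.9 and 72.3 to 25.3 and 34.6 (log2 fold change -1.24, SE 0.24, adjusted p = 0.0107), and its peak of 1595 and 1629 bp in WT shrank to 0 and 501 bp. *Nat8* and *Nat8f5*, neighbouring copies of an N-acetyltransferase gene, fell by 1.17 on the log2 scale each, with adjusted p of 0.00822 and 0.0103. *Hsd17b6*, a hydroxysteroid dehydrogenase, *Clec2h*, a lectin-like receptor, and *Sertad4* fell by 0.99, 1.01 and 0.81. Of the 10 promoters named for the largest falls, *Selenbp2* and *Hsd3b5* kept the call whichever library was left out, and the other 8 lost it without at least 1 library. The steepest ratios belonged to *Gdpd3* (14.3 and 15 against 1.58 and 0.532 tags) and *Gm2083* (19.6 and 18.3 against 3.16 and 1.60), which averaged under 20 tags per library and are named after their values were seen.

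Of 20 lipogenic and LXR target genes with a promoter row, 6 rose and none fell (1.14% and 0.143% of all promoter rows), with a median log2 fold change of 0.20. TMM scaling and DESeq2 called 4 each. *Elovl5*, an elongase of polyunsaturated fatty acids, held 820 and 777 tags in WT and 1312 and 1256 in LKO (log2 fold change 0.68, SE 0.06, adjusted p = 7.75e-06), a call kept under all 13 alternatives. *Fads2* (desaturase), *Fasn* (fatty acid synthase) and *Gpam* (glycerol-3-phosphate acyltransferase) rose by 0.46, 0.44 and 0.49 on the log2 scale, and each lost the call without at least 1 library. Of 19 genes of cholesterol synthesis and uptake, none was called by edgeR or DESeq2, a count near the share over all promoter rows. An unadjusted p below 0.05 was found for 2 of them, against 9.12% of all promoter rows. Both LKO libraries lay above both WT libraries at 0 of the 19, against 30.6% of all promoter rows, and below at 2, against 5.67%. Their median log2 fold change was -0.08, with a range from -0.42 (*Sqle*) to 0.21 (*Sc5d*). Of 19 genes of amino acid synthesis and ATF4 response, 4 rose and none fell. *Asns*, asparagine synthetase, went from 123 and 110 to 253 and 232 tags (log2 fold change 1.05, SE 0.15, adjusted p = 6.59e-04), and *Vldlr*, a lipoprotein receptor, from 175 and 152 to 294 and 276 (log2 fold change 0.80, SE 0.13, adjusted p = 0.00261). *Gdf15* and *Fgf21* were the other members that rose.

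Among the 17 hepatocyte markers with a promoter row, 7 rose and none fell (1.14% and 0.143% of all promoter rows), and 5 rose with DESeq2. *G6pc* (glucose-6-phosphatase) held 893 and 1048 tags in WT and 1481 and 1531 in LKO (log2 fold change 0.64, SE 0.07, adjusted p = 9.50e-05). *Pck1* (gluconeogenesis) went from 1327 and 1325 to 1944 and 1825 (log2 fold change 0.51, SE 0.06, adjusted p = 1.39e-04), and *Tat* and *Apoa1* rose by 0.57 and 0.48. None of the 17 circadian clock genes, 6 NCOR complex subunits, 15 genes of the H3K4 methylation machinery or 21 ribosomal protein genes was called, with medians of -0.02, 0.04, -0.0036 and 0.07. Such counts of calls are near the share over all promoter rows. An unadjusted p below 0.05 was found for 5 (29.4%), 0, 0 and 2 (9.52%) of them, against 9.12% of all promoter rows. DESeq2 called none, and TMM scaling called 1 clock gene as lower. In the same order, both LKO libraries lay above both WT libraries at 1, 2, 1 and 17 rows, against 30.6% of all promoter rows. They lay below at 4, 0, 1 and 0 rows, against 5.67%. Of 12 acute phase genes, *Cp* (ceruloplasmin) rose, from 1106 and 852 to 1538 and 1355 tags (log2 fold change 0.56, SE 0.09, adjusted p = 0.00302).

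**Figure D3:**
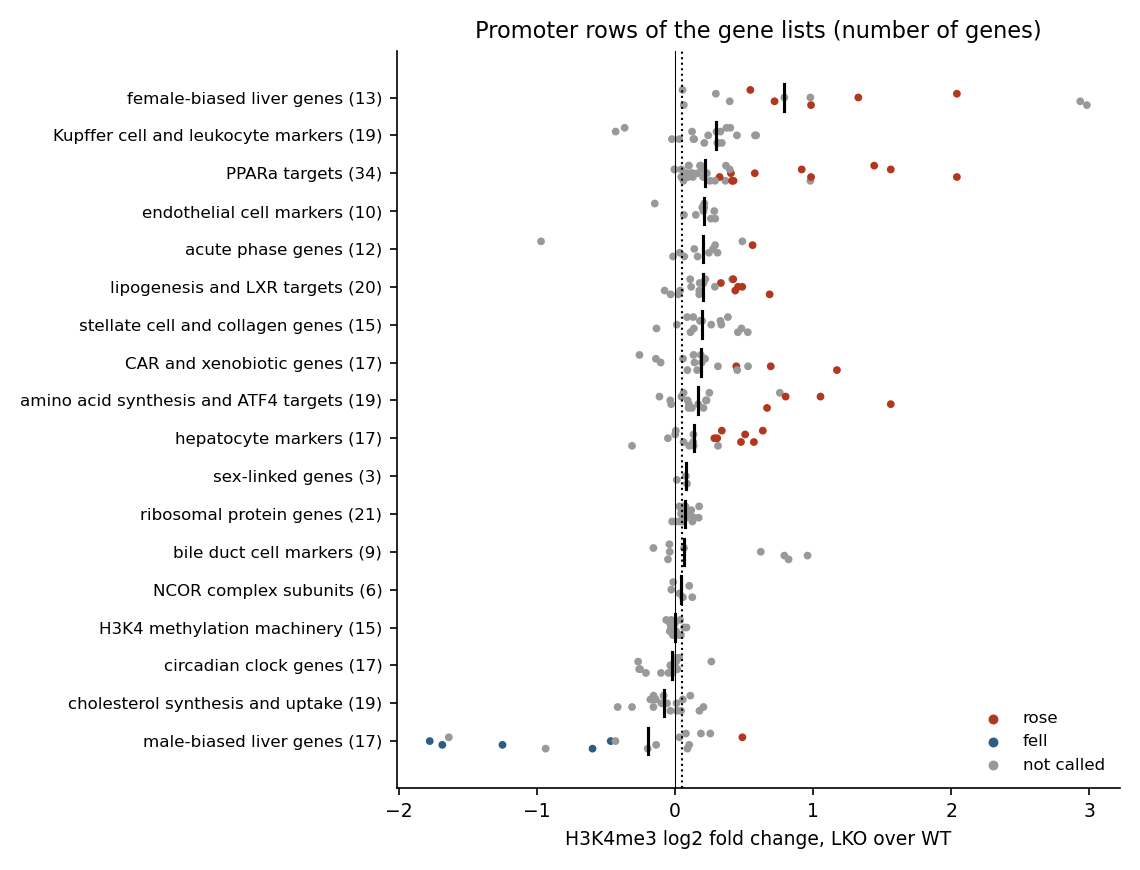
H3K4me3 log2 fold change, LKO over WT, at the promoter row of each listed gene (points; red rose, blue fell, grey not called), with the median of each list (black bar) and of all promoter rows (dotted line, 0.05). Female-biased genes have the highest median, 0.79, and male-biased genes the lowest, -0.20.

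Among the promoter rows of markers of non-parenchymal and bile duct cells, edgeR and DESeq2 called none, a count near the 1.14% and 0.143% of all promoter rows. The 19 Kupffer cell and leukocyte markers summed to 1564 and 1770 tags in WT and 1700 and 2432 in LKO, the 15 stellate cell and collagen genes to 2687 and 2374 against 2847 and 2847, the 10 endothelial markers to 2292 and 2278 against 2592 and 2670, and the 9 bile duct markers to 2239 and 1787 against 2100 and 1888. These are the markers with a promoter row, of 30, 17, 13 and 9 listed. Their median log2 fold changes were 0.30, 0.20, 0.21 and 0.06, against 0.05 over all promoter rows, and their part in the gains elsewhere was not tested. An unadjusted p below 0.05 was found for 3 leukocyte (15.8%), 2 stellate (13.3%), 3 endothelial (30.0%) and 4 bile duct markers (44.4%). Over all promoter rows the share was 9.12%. In the same order, both LKO libraries lay above both WT libraries at 3, 7, 8 and 4 markers, against 30.6% of all promoter rows. They lay below at 1, 0, 0 and 0, against 5.67%. RNA rose in LKO for 11 of 13 tested leukocyte markers, 15 of 15 stellate genes, 4 of 10 endothelial markers and 5 of 8 bile duct markers, and it fell for 1 bile duct marker, where 23.4% of all genes tested rose and 21.4% fell. In whole liver, a change in the number of cells of a type and a change per cell cannot be told apart.

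The distal rows that gained most were intergenic or intronic. A row of 5568 bp in intron 2 of *Fam19a2* (chr10:122970329-122975896, mm9), which encodes a secreted chemokine-like protein of the nervous system, held 35 and 97.8 tags in WT and 530 and 477 in LKO (log2 fold change 2.94, SE 0.23, adjusted p = 1.12e-06). The intergenic row upstream of *Mfsd2a*, a lysolipid transporter (chr4:122646561-122651439), rose from 10.7 and 14.3 to 88.9 and 86.2 tags (log2 fold change 2.81, SE 0.26, adjusted p = 7.28e-06), and had a peak in both LKO libraries and in neither WT library. The *Mfsd2a* promoter rose from 637 and 910 to 1775 and 1900 tags (log2 fold change 1.25), a row named after its values were seen. A row of 1045 bp in intron 7 of *Cdk5rap1* had the largest fold, from 8.31 and 1.30 to 34.2 and 75.0 tags (log2 fold change 3.45, SE 0.49, adjusted p = 8.71e-04). This row lost the call with DESeq2, in the whole table and without WT replicate 2. It had a peak in both LKO libraries and in neither WT library, so it became a member only through LKO. The GENCODE annotation of mm9 places a TSS of *Cdk5rap1* inside it. The largest distal loss was at an intergenic row upstream of *Rassf3*, a RAS association domain gene (chr10:120945664-120954050), from 213 and 216 to 47.9 and 36.7 tags (log2 fold change -2.34, SE 0.19, adjusted p = 1.43e-06). Its other intergenic row fell from 339 and 300.4 to 101 and 89.9 tags and its promoter row from 1204 and 1116 to 887 and 921, both named after their values were seen. Rows nearest to *Pdia5* and *Slc22a7* fell by 2.12 and 1.95 on the log2 scale. The *Slc22a7* call was lost in the whole table and without each library except LKO replicate 1. Of the distal rows, 17 of 67 that rose and 7 of 16 that fell came within 1000 bp of a TSS in the GENCODE annotation of mm9, so that some may be promoters that the deposited annotation does not hold. For all distal rows this was 1849 of 12970. Of the promoter rows, 156 of 159 that rose, 18 of 20 that fell and 13682 of all 13977 came within 1000 bp of such a TSS. Named promoter rows that did not were *1810053B23Rik*, *Cyp2c53-ps*, *Hsd3b5* and *Hsd17b6*.

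Rows that gained the mark were broad. The median width was 13587 bp for the promoter rows that rose, 6279 bp for those that fell and 2984 bp for all promoter rows, and a row has the width of the merged H3K4me3 and H3K27ac regions. They also held more tags, with a median of 1196 raw tags per library on average at risen rows against 673.5 at all promoter rows. Of 1488 promoter rows of 10000 bp or more, 95 rose and 6 fell, and of 12489 narrower ones 64 rose and 14 fell. Over all promoter rows 1.14% rose and 0.143% fell. Within the rows, the H3K4me3 peaks of both LKO libraries covered more bases than those of both WT libraries at 130 of 159 risen promoters (81.8%, against 30.8% of all promoter rows), with medians of 4668 and 4370 bp in WT and 5756 and 5678 bp in LKO. At 17 of the 20 that fell both LKO libraries had less (12.3% of all promoter rows). The lengths come from the same reads as the tags and are no independent measure.

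**Figure D4:**
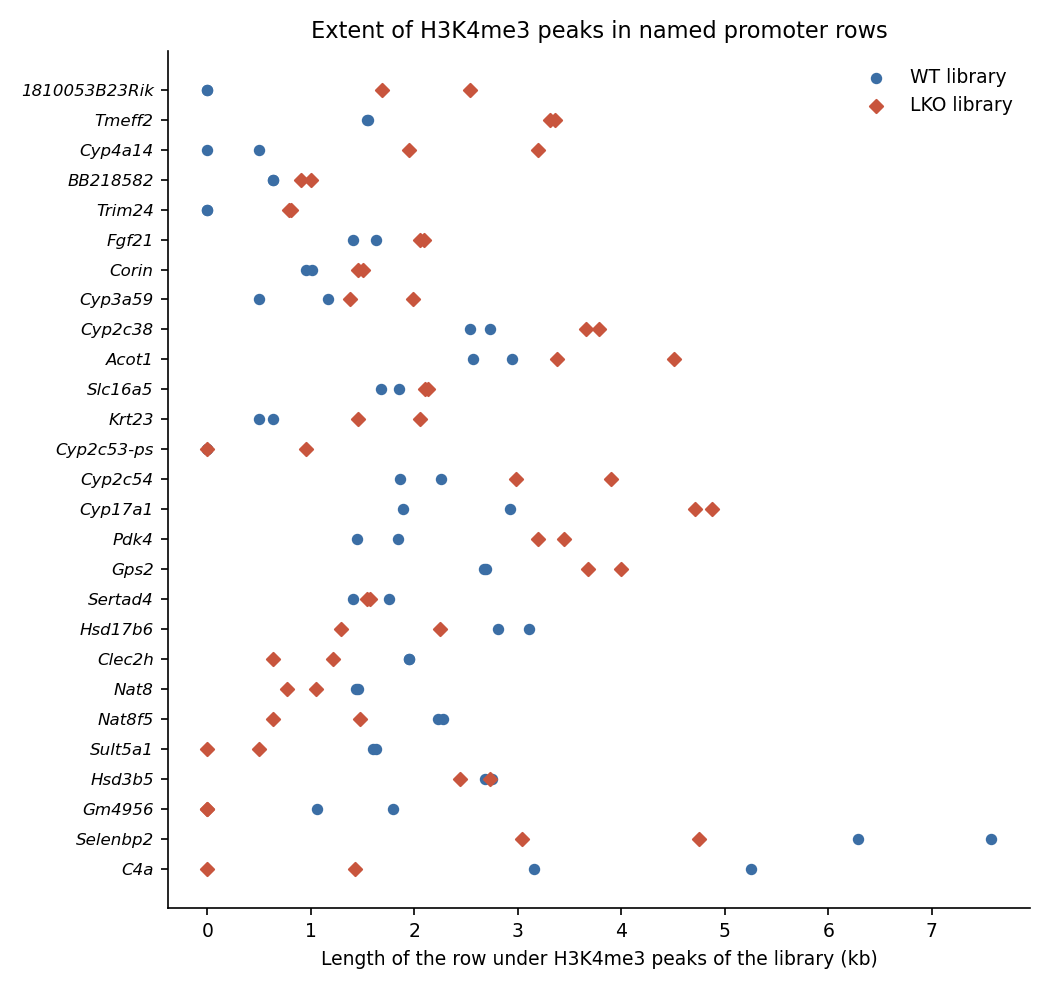
Length in kb of each named promoter row that lay under the H3K4me3 peaks of a library, for WT (circle) and LKO (diamond) libraries, in the order of the log2 fold change of tags. LKO peaks are longer at the risen rows but *Cyp2c53-ps*, where 1 LKO library had no peak, and at *Gps2* and *Pdk4*, and shorter at the rows that fell except *Hsd3b5* and *Sertad4*, where they overlap the WT lengths.

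H3K27ac, measured in separate libraries, moved the same way. Over all member rows it rose at 324 (1.2%) and fell at 62 (0.23%). It rose at 59 of the 159 promoters where H3K4me3 rose and fell at none, beside 0.916% of all promoter rows that rose, and it fell at 11 of the 20 where H3K4me3 fell and rose at none, beside 0.193%. At distal rows it rose at 31 of 67 (1.51% of all distal rows) and fell at 8 of 16 (0.27%). No row was called for both marks in opposite directions. *Tmeff2* went from 7.99 and 11.9 to 111 and 128 H3K27ac tags per 10000000 (log2 fold change 3.57, SE 0.20, adjusted p = 2.37e-04), *Asns* from 44.8 and 22.5 to 146 and 166 (log2 fold change 2.24, SE 0.24, adjusted p = 0.00375) and *C4a* from 477 and 359 to 160 and 81.2 (log2 fold change -1.80, SE 0.25, adjusted p = 0.0132). The 59 promoters with both marks up had a median row width of 6760 bp and a median WT level of 194 H3K4me3 tags, and the 100 with H3K4me3 alone called had 17040 bp and 788 tags. *G6pc*, *Pck1* and *Igfbp1* (an insulin-like growth factor binding protein, named after its values were seen) were of the second kind. At *Igfbp1* H3K4me3 went from 435 and 464 to 1044 and 964 tags (log2 fold change 1.16, adjusted p = 7.47e-08), while H3K27ac had a log2 fold change of 0.28 (adjusted p = 0.295). At *G6pc* H3K27ac had 2352 and 2083 tags in WT and 2363 and 2120 in LKO. The number of H3K27ac calls rests on single libraries. Rises and falls numbered 4 and 2 without WT replicate 1, 25 and 3 without WT replicate 2, 1196 and 603 without LKO replicate 1 and 907 and 136 without LKO replicate 2.

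RNA moved in the direction of the mark at most genes. RNA rose at 23.4% and fell at 21.4% of all genes tested. Of 150 genes at risen promoters that were tested for RNA, 108 rose and 12 fell, beside 23.5% and 22.2% of the genes with a promoter row, and the median RNA log2 fold change was 0.63. Of 18 genes at fallen promoters, 17 fell and none rose, with a median of -1.67. Both marks and RNA rose together at 51 genes and fell together at 9. *Fgf21* RNA rose from between 0.475 and 1.02 CPM in WT to between 12.6 and 17.3 in LKO (log2 fold change 4.30, SE 0.19, adjusted p = 7.44e-10). *Cyp4a14* RNA rose from between 3.38 and 5.16 to between 108 and 128. *Selenbp2* RNA fell from between 621 and 672 to between 87.2 and 109. The RNA groups did not overlap at any of these 3 genes. *Slc16a5* RNA rose from between 2.97 and 4.34 to between 23.5 and 24.8. *Sult5a1* RNA fell from between 12.8 and 14.4 to between 0.658 and 1.34. Scaling RNA to total counts in place of TMM moved the median of all genes by more than 0.1 on the log2 scale, from 0.03 to -0.15, and changed the RNA calls from 2856 up and 2621 down to 1560 and 4637.

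Read from the RNA side, the mark was called at few of the changed genes. Of 321 genes with a promoter row whose RNA rose at least 2-fold, 46 (14.3%) gained H3K4me3 and none lost it, with a median log2 fold change of the mark of 0.26. Of 120 genes whose RNA fell at least 2-fold, 11 (9.17%) lost the mark and 3 gained it, with a median of -0.05. Of 5588 genes whose RNA was not called, 29 gained the mark (0.519%) and 1 lost it. Over all promoter rows 1.14% were called as risen and 0.143% as fallen. Both LKO libraries lay above both WT libraries at 67.6% of the genes whose RNA rose at least 2-fold, and below at 0.935%. For genes whose RNA fell at least 2-fold the shares were 9.17% and 28.3%, and for uncalled RNA 29.2% and 4.47%. The 3 genes with more mark and at least 2-fold less RNA were *Elovl3* (RNA log2 fold change -2.68), *Sult2a8* (-1.30), a sulfotransferase, and the noncoding *Malat1* (-1.04). Smaller opposite changes were found at *Apob*, *Pck1*, *Angptl4*, *Crot* and 5 others. *Clec2h* was the 1 fallen promoter whose tested RNA was not called (log2 fold change -0.13). RNA polymerase II was measured in 1 library per genotype, with no test. It was higher in LKO at 107 of 156 risen promoters with a peak (68.6%), beside 63.8% over all promoter rows, and at 7 of 13 fallen promoters (53.8%). At *Cyp4a14* it had 1.72 tags per 10000000 in WT (exact Poisson 95% interval 0.208 to 6.20, counting error only) and 42.9 (31.9 to 56.4) in LKO, at *Fgf21* 70.3 (55.9 to 87.3) and 166 (144 to 191), and at *Tmeff2* 133 (113 to 156) and 136 (116 to 159). It went against the mark at other rows. It had 156 (134 to 181) in WT and 94.2 (77.5 to 113) in LKO at *Cyp2c29* and 54.9 (42.3 to 70.1) and 20.2 (12.9 to 30) at *Cyp2c54*, where H3K4me3 rose, and 60.1 (46.8 to 75.9) and 129 (110 to 152) at *Selenbp2*, where it fell.

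**Figure D5:**
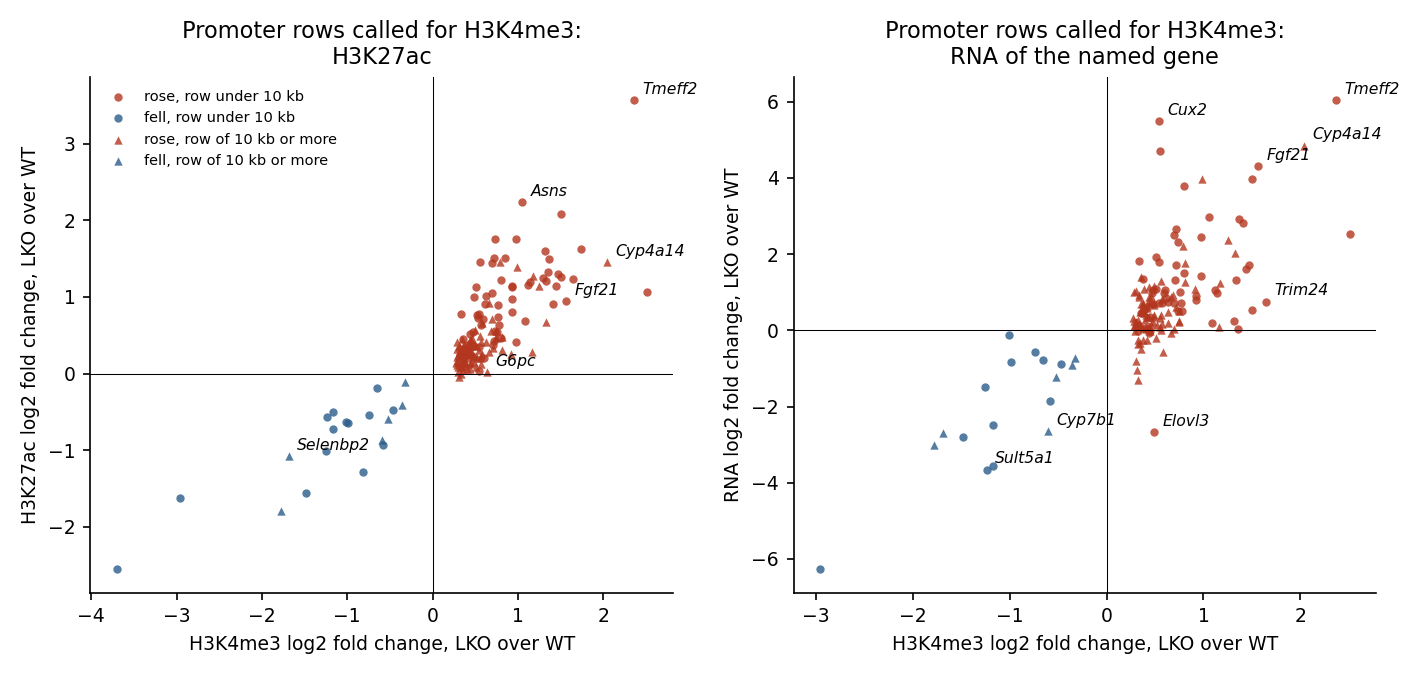
Log2 fold change, LKO over WT, of H3K27ac (left) and of RNA (right) against that of H3K4me3 at the promoter rows called for H3K4me3; red rows rose, blue rows fell, and triangles are rows of 10 kb or more. All rows that fell are below 0 for H3K27ac, and *Elovl3* lies lowest among the risen rows in the RNA panel, at -2.68.

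Promoters that changed held less CpG than promoters in general. A TSS and its sequence were matched for 139 of 159 risen, 17 of 20 fallen and 12840 of 13977 promoter rows. The median ratio of observed to expected CpG was 0.383 at risen, 0.321 at fallen and 0.745 at all promoters, and 55.4%, 64.7% and 22.9% lay below 0.5. All 6 sequences printed above are of this kind, from 0 (*Cyp3a59*, *Cyp2c38*) to 0.361 (*Fgf21*), whereas *Tmeff2* was at 0.703. A match to DR1, the direct repeat with 1 spacer base that PPARα and HNF4α bind, stood in 13 risen windows (9.35%), in no fallen window and in 2.90% of all windows. Among the 13 were *Cyp3a59*, *Cyp2c29*, *Fabp1* and *Plin2*. A match to TGATGNAA, the element bound by ATF4 with C/EBP, stood in 10 risen windows (7.19%), in 1 fallen window and in 1.99% of all windows, *Fgf21*, *Trim24*, *Asns* and *Vldlr* among them. A TATAAA stood in 6 risen windows (4.32%), in no fallen window and in 1.21% of all. A match describes the letters in the window, not binding.

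Peaks of the corepressor were frequent at the changed promoters, and at broad promoters in general. A GPS2 peak of WT liver overlapped 88.1% of risen, 85.0% of fallen and 65.8% of all promoter rows, and 98.0% of promoter rows of 10000 bp or more. For NCOR the shares were 86.2%, 80.0% and 56.5%, and for PPARα 90.6%, 80.0% and 61.6%. GPS2 peaks are from 1 library, and NCOR and PPARα peaks were counted where at least 2 of 3 WT libraries had them. Among rows under 10000 bp, GPS2 overlapped 71.9% of those that rose, 78.6% of those that fell and 62.0% of all. The rows of *Tmeff2*, *Corin*, *BB218582*, *Gm4956* and *Asns* overlapped neither a GPS2 nor a NCOR peak, while those of *Cyp4a14*, *Fgf21*, *Acot1*, *Cyp17a1* and *Selenbp2* overlapped all 3 factors.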

How the data were processed

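H3K4me3 and H3K27ac tags and RNA reads were analysed as the authors deposited them. The ChIP-seq values are raw tag counts per row, made by the authors with HOMER from reads aligned to mm9, and the table headers give each library's total tags. RNA polymerase II values are deposited tag counts of 1 library per genotype. RNA values are deposited counts of reads per gene, without normalization. The deposited peak lists hold a constant score and only their positions were used. For crosslinking, the labels name DSG and formaldehyde and the methods of the study formaldehyde alone for histone marks. No source used here gives the versions of these tools. The authors' own fold changes and p-values were not used.

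Rows were tested with edgeR 4.0.16 (R 4.3.3), quasi-likelihood, with total tags as library size and no filter beyond 1 tag, over all members. RNA was tested with TMM scaling and the edgeR filter. DESeq2 1.42.0, TMM scaling, a likelihood ratio test, other member rules, other TSS distances, the replicate block and leaving out each library in turn were alternatives. The members, gene lists and tests were chosen with earlier results of these data known. Other genes in the text were named after their values were seen. By rule, named were the promoter rows of *Gps2*, *Pdk4*, *Cyp4a14* and *Fgf21*, the 15 largest rises and 10 largest falls at promoters and the 3 and 3 at distal rows (called, groups separated, mean of at least 20 tags), and up to 4 genes of each list. Replicates differed by more than counting noise (chi-square per degree of freedom 2.25 in WT and 2.69 in LKO for H3K4me3), so each library was counted as 1 sample. TSS positions and sequences are from NCBIM37 (mm9) with GENCODE M1, matched within 100 bp. On simulated H3K4me3 tags over 26947 rows with 200 changed, 96% of changes of 2-fold and 100% of 4-fold were recovered, with 6 false calls. The changed rows were drawn only above a floor of mean tags, which the median distal row (39.25 tags) does not reach. All simulated rows shared a common dispersion, so these shares do not hold for weakly marked or more variable rows.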

Additional observations from a re-analysis of the deposited data

Results flagged for a closer look

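Among 89 genes chosen by the naming rule and measured by RNA, RNA of 16 of 178 groups of 4 libraries held a single library far from the other 3 (Dixon's test), where chance gives about 1 in 20. RNA values are CPM with TMM scaling, and no cause was tested. LKO replicate 2 stood apart for *1810053B23Rik* (3.1 against 2.48 to 2.55), *Pdia5* (78.5 against 91 to 93.6), the clock gene *Hlf* (78.7 against 64.3 to 64.8), the ribosomal protein gene *Rps9* (113 against 157 to 160) and *Apoa1* (8.44e+03 against 1.16e+04 to 1.19e+04). LKO replicate 1 stood apart for *Cdk5rap1* (6.49 against 4.71 to 4.78), *Sqle* (127 against 117 to 118) and *Ciart* (22.5 against 19.7 to 20). LKO replicate 3 stood apart for *Moxd1* (0.0619 against 0 in each of the others), *Sc5d* (687 against 808 to 810) and *Pck1* (3.1e+03 against 2.63e+03 to 2.7e+03), and LKO replicate 4 for *Tmeff2* (39.1 against 35.2 to 35.8). Among WT libraries, replicate 1 stood apart for *Apoa1* (9.76e+03 against 9.14e+03 to 9.22e+03), replicate 3 for *Clec2h* (5.82 against 6.49 to 6.59) and replicate 4 for *Eif2s3y* (64.3 against 58.7 to 59.4) and *Lum* (6.11 against 7.01 to 7.19). The ChIP groups, of 2 libraries each, are too small for the test.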

How the results depend on the processing

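The 262 calls kept their sign under every alternative, and none of the 45 called named rows reversed. With TMM scaling 193 of 203 rises and 36 of 54 falls were shared with the reported calls, and with DESeq2 155 of 157 and 29 of 33. The cause of each shift below was not tested. Rises and falls over all rows numbered 30 and 2 in the fit over the whole shared table and 557 and 161 with the replicate block, and falls 66 with the likelihood ratio test. Promoter rises numbered 19 in the whole table, 394 with the block and 105 with DESeq2, and promoter falls 0, 70, 35 with TMM scaling and 33 with the likelihood ratio test. Distal rises numbered 11 in the whole table, 163 with the block, 42 over rows with a peak in both genotypes and 43 when scaled to tags in promoter rows (an alternative chosen after seeing the data), and distal falls 2, 91, 10 with a peak in both genotypes and 33 with the likelihood ratio test. H3K27ac rises numbered 200 with TMM scaling, 748 with the likelihood ratio test and 1203 with the block, and falls 158 and 338 with the last 2. RNA calls numbered 1560 up and 4637 down with total count scaling.

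Leaving out 1 library gave 111 to 314 rises and 21 to 60 falls over all rows, 78 to 247 and 11 to 33 at promoters, 33 to 72 and 9 to 27 at distal rows, 4 to 1196 and 2 to 603 for H3K27ac, and 2300 to 3425 and 2066 to 3545 for RNA. The difference in the share of tags in members ran from -0.225 (without WT replicate 2) to 5.06 percentage points (without WT replicate 1).

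Log2 fold changes that reversed belonged to rows that were not called. *Eif2s3y* was at -0.0247 with TMM scaling, -0.0286 with DESeq2 and -0.0404 when scaled to promoter tags, *Ncor1* at -0.00685, -0.0105 and -0.022, and *Setd1a* at -0.0107 with the last. Over the fits without 1 library, *Moxd1* ran from -2.38 to 0.0352, *Eif2s3y* from -0.0035 to 0.0279, *Sc5d* from -0.0396 to 0.415, *Msmo1* from -0.468 to 0.0617 (0.0439 without WT replicate 1), *Lcn2* from -1.74 to 0.937, *Serpina3n* from -0.0693 to 0.839, *Tbl1xr1* from -0.0204 to 0.139, *Setd1a* from -0.00197 to 0.0845 and *Nkg7* from -0.074 to 1.09.

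The labels number the replicates but do not say that a number pairs livers. For this reason the numbers were not taken as pairs, and the replicate block was an alternative. Deviations from the group means of same-numbered libraries correlated at 0.239 for H3K4me3, 0.212 for H3K27ac and 0.041 to 0.18 for RNA. These positive values do not settle whether the numbers pair livers. An unadjusted p below 0.05 was found for 2079 of 26947 rows.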
